A study of Homo sapiens with 6 samples.

Results

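The genes described here encode the machinery that carries new proteins into or across the endoplasmic reticulum (ER) membrane and attaches N-linked glycans to them. The 35 members were chosen by gene name, with earlier results of these data known. They are subunits of the SEC61 channel and its partners, the signal recognition particle (SRP), the SRP receptor, signal peptidase and the oligosaccharyltransferase (OST). All 35 were found among the 61541 Ensembl genes of the deposited count table, matched through their Ensembl identifiers. RNA sequencing compared shRNF26 cells, which carried a short hairpin RNA (shRNA) against RNF26, with shcontrol cells, which carried a control shRNA (3 libraries each). All 6 libraries are labelled as A498, an established line from a human clear cell renal carcinoma, kept in RPMI-1640 medium with serum. RNF26 is a ubiquitin ligase of the ER membrane, and by its title the series belongs to work on CDK4/6 inhibitors, RNF26 and TSC1. The labels give the treatment of both groups as transfection infection, give no hairpin sequence and do not say whether replicates came from separate cultures. The spread behind each p-value is thus that of these samples alone and may be technical.

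As background, a signal sequence that emerges from the ribosome is bound by SRP, which docks on its receptor and hands the ribosome to the SEC61 channel. Signal peptidase then cuts the signal sequence, and OST transfers a preassembled oligosaccharide from a dolichol lipid to asparagine residues of the entering chain. In cells with ER stress, the unfolded protein response is known to raise transcription of many of these genes through the factors XBP1 and ATF6.

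Libraries held 16682871 to 17824141 gene counts in the shRNF26 group and 16915790 to 18021718 in the shcontrol group. RNF26 (ENSG00000173456) had 1216, 1274 and 1175 counts in the shRNF26 libraries, against 35331, 31901 and 31928 in the shcontrol libraries (log2 fold change -4.84, SE 0.040, edgeR quasi-likelihood test, adjusted p = 4.27e-24). Of 12 markers of renal epithelium and clear cell carcinoma, 10 had a mean below 1 CPM (counts per 1000000, with library sizes adjusted by the trimmed mean of M values, TMM), and EMX2 had no count in any library. The summed level of the 12 was 38.5 to 41.0 CPM in shRNF26 and 31.1 to 31.7 CPM in shcontrol libraries, and MME supplied most of it. All 7 squamous epithelium markers averaged above 1 CPM, with a summed level of 1069 to 1131 CPM in shRNF26 and 1202 to 1276 CPM in shcontrol libraries. Below 1 CPM were also 4 of 5 fibroblast markers, all 4 leukocyte markers and 3 of 4 endothelial markers. Called higher in shRNF26 libraries were MME (log2 fold change 0.40), the fibroblast marker COL1A1 (0.51) and the squamous marker TP63 (0.17), and called lower were the squamous markers KRT6A (-0.73), SPRR1B (-1.03) and DSG3 (-0.31). The part that these differences play in the results was not tested, and the cell identity rests on the labels.

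Transcripts of the translocation and glycan transfer machinery were mostly lower in the shRNF26 libraries, by modest amounts. Of the 35 members, all passed the minimum mean of 1 CPM, 24 fell, 1 rose and 10 did not pass (edgeR quasi-likelihood test, Benjamini-Hochberg adjusted p below 0.05 over all 14766 tested genes). The falls thus covered 68.6% of the members, where 22.6% of all tested genes fell. The single rise compares with 18.9% of all tested genes that rose. Since the members were chosen with earlier results of these data known, these shares are a description and not a test. In 26 members every shRNF26 library lay below every shcontrol library, which was so for 25.9% of all tested genes, and KRTCAP2 alone lay wholly above, as did 24.2% of tested genes. The median log2 fold change of the members was -0.20, beside 0.0079 over all tested genes, and the range ran from -0.66 for SEC11C to 0.44 for KRTCAP2. The 35 genes together took 0.536%, 0.525% and 0.536% of all counts in the shRNF26 libraries, against 0.558%, 0.574% and 0.578% in the shcontrol libraries, with no overlap between the groups. Since these are bulk libraries, fewer cells with these transcripts and less of them per cell cannot be told apart.

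Some of these falls were small enough for their call to depend on the scaling. TMM factors were 1.03 in the shRNF26 libraries and 0.966 to 0.971 in the shcontrol libraries. With total counts alone, 18 members fell and 4 rose, and the split over all tested genes turned to 2266 lower and 4451 higher, against 3332 lower and 2785 higher with TMM. That setting ended the calls of SSR2, SSR4, SPCS3, DDOST, DAD1 and TUSC3 and added rises of SRP14, SPCS1 and RPN2. Total-count scaling moved the median log2 fold change to 0.099 over all tested genes and to -0.11 over the members, and 30 of the 35 members lay below the median of all genes, a position that a change of scaling leaves as it is.

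**Figure D1:**
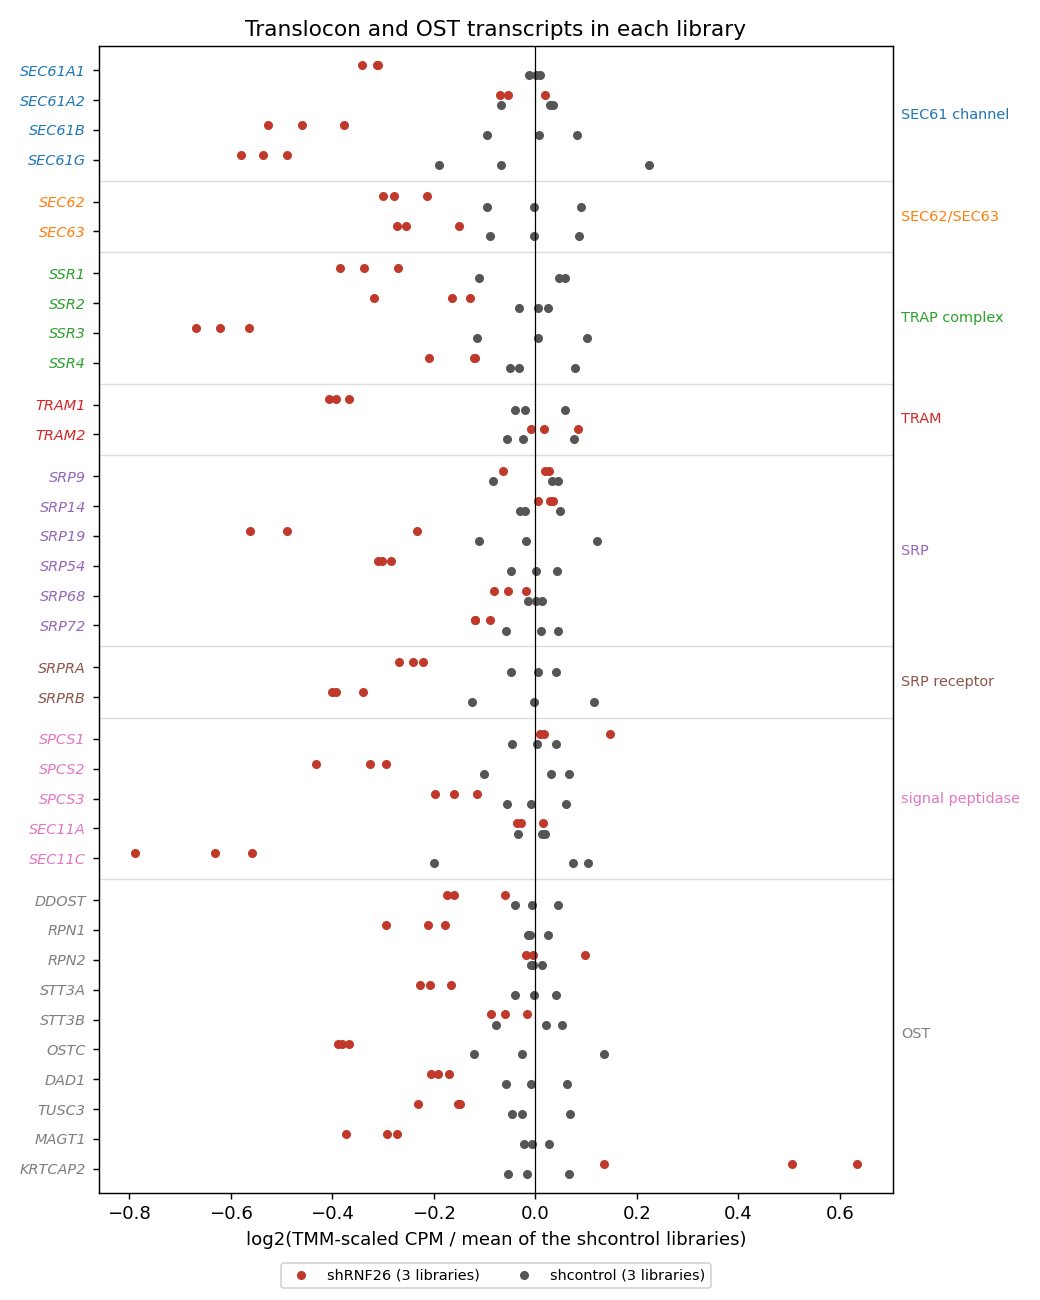
Level of each member in each library, as log2 of TMM-scaled CPM over the mean of the 3 shcontrol libraries; red points are shRNF26 libraries, grey points shcontrol libraries, and rows are grouped by complex. In 26 of 35 rows all red points lie left of all grey points, and in the KRTCAP2 row they lie to the right.

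**Figure D2:**
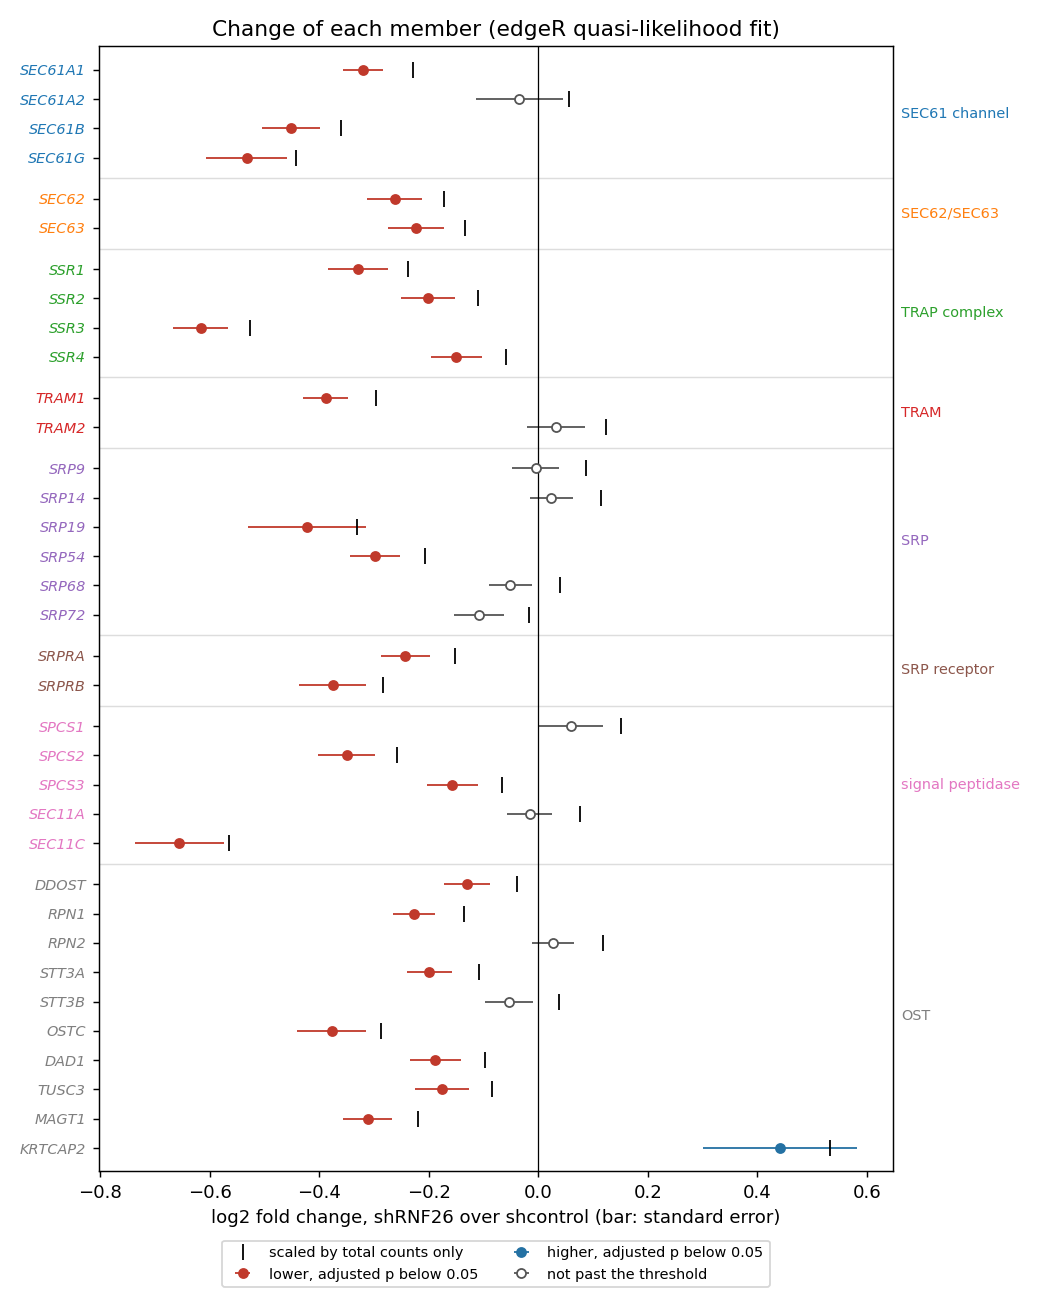
Log2 fold change of each member, shRNF26 over shcontrol, with its standard error as a bar; filled points passed the adjusted p threshold, open points did not, and black ticks give the value with total-count scaling. The 24 members called lower lie between -0.66 and -0.13, and total-count scaling shifts every member to the right.

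The SEC61 channel is a trimer of an alpha subunit, which forms the pore, and the small beta and gamma subunits. Transcripts of 1 subunit of each kind fell, while the second alpha gene, SEC61A2, did not pass. SEC61A1 (ENSG00000058262), the main alpha gene, had 5998, 6079 and 5796 counts in shRNF26 libraries, against 7294, 6813 and 6915 in shcontrol libraries. Its level was 336 ± 4.09 CPM in shRNF26 and 420 ± 3.25 CPM in shcontrol libraries (mean ± SD, n = 3 each, as for all levels below), a log2 fold change of -0.32 (SE 0.036, edgeR adjusted p = 7.96e-07).

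SEC61B, the beta subunit, had 1776, 1950 and 1641 counts in shRNF26 libraries, against 2406, 2113 and 2390 in shcontrol libraries, with a log2 fold change of -0.45 (SE 0.053). The gamma subunit gene SEC61G had 1472, 1576 and 1383 counts in shRNF26 libraries, against 1835, 1885 and 2304 in shcontrol libraries. All 3 shRNF26 libraries were low, and the shcontrol libraries spread more widely, with replicate 3 the highest; the log2 fold change was -0.53 (SE 0.074), and -0.41 without that replicate. SEC61A2 had 369, 378 and 376 counts in shRNF26 libraries, against 383, 363 and 338 in shcontrol libraries, and the groups overlapped (log2 fold change -0.03 with SE 0.079 and edgeR adjusted p = 0.76). Per kb of principal transcript, SEC61A1 stood at 92.5 ± 1.13 CPM in shRNF26 and 115 ± 0.894 CPM in shcontrol libraries. SEC61A2 stood at 11.2 ± 0.377 CPM per kb in shRNF26 and 11.4 ± 0.449 CPM per kb in shcontrol libraries, so it was the minor alpha transcript in both.

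SEC62 and SEC63 join the channel to admit chains after translation, SEC63 by recruiting the luminal chaperone BiP. Both fell. SEC62 had 1913, 1954 and 1938 counts in shRNF26 libraries, against 2130, 2143 and 2283 in shcontrol libraries (log2 fold change -0.26 with SE 0.051 and edgeR adjusted p = 0.00038). SEC63 had 2276, 2193 and 2023 counts in shRNF26 libraries, against 2326, 2332 and 2477 in shcontrol libraries (log2 fold change -0.22, SE 0.051). The raw counts of SEC63 nearly touch between the groups, and its fall shrank to -0.13 with total-count scaling, as that of SEC62 shrank to -0.17, both still past the threshold.

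The translocon-associated protein (TRAP) complex sits beside the channel and helps certain signal sequences to open it. Transcripts of all 4 subunits fell, by unequal amounts. SSR3, the gamma subunit, had 3191, 3200 and 3212 counts in shRNF26 libraries, against 4442, 4552 and 4866 in shcontrol libraries. Its level was 181 ± 6.51 CPM in shRNF26 and 277 ± 20.7 CPM in shcontrol libraries, a log2 fold change of -0.62 (SE 0.050, edgeR adjusted p = 9.15e-09). Among all tested genes, 5.99% had a lower log2 fold change than SSR3.

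The alpha subunit gene SSR1 had 1493, 1475 and 1334 counts in shRNF26 libraries, against 1633, 1733 and 1718 in shcontrol libraries (log2 fold change -0.33, SE 0.054). SSR2, the beta subunit, had 2483, 2313 and 2465 counts in shRNF26 libraries, against 2668, 2619 and 2582 in shcontrol libraries (log2 fold change -0.20, SE 0.049, and -0.11 with total-count scaling, which ended the call). For the delta subunit gene SSR4 the log2 fold change was the smallest of the 4, at -0.15 (SE 0.046). Its call was lost with total-count scaling (-0.06), with upper-quartile factors (-0.10), without shRNF26 replicate 3 (-0.12) and without shcontrol replicate 1 (-0.11). SSR3 thus had the largest fall of the 4, and the differences among them were not tested.

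TRAM1, a membrane protein that contacts nascent chains at the channel, fell, and its relative TRAM2 did not pass. TRAM1 had 3363, 3422 and 3165 counts in shRNF26 libraries, against 4189, 4176 and 3896 in shcontrol libraries, or 187 ± 2.64 CPM in shRNF26 and 245 ± 9.01 CPM in shcontrol libraries. The change on the log2 scale was -0.39 (SE 0.041, edgeR adjusted p = 3.91e-07). TRAM2 had 1295, 1405 and 1230 counts in shRNF26 libraries, against 1206, 1246 and 1163 in shcontrol libraries (log2 fold change 0.03 with SE 0.054 and edgeR adjusted p = 0.66), and after scaling the groups overlapped.

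Of the 6 SRP transcripts 2 fell (33.3%, beside 22.6% of all tested genes). SRP54, the GTPase that binds the signal sequence, and SRP19, which helps SRP54 to join the SRP RNA, fell, while SRP9, SRP14, SRP68 and SRP72 did not pass. SRP54 had 1559, 1588 and 1490 counts in shRNF26 libraries, against 1801, 1809 and 1758 in shcontrol libraries (log2 fold change -0.30 with SE 0.047 and edgeR adjusted p = 4.14e-05). SRP19 had 204, 201 and 236 counts in shRNF26 libraries, against 277, 288 and 245 in shcontrol libraries (log2 fold change -0.42 with SE 0.11 and edgeR adjusted p = 0.0039).

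SRP9 and SRP14, which form the heterodimer that slows elongation, had log2 fold changes of -0.0049 (SE 0.043) and 0.02 (SE 0.039), and their groups overlapped. SRP68 and SRP72, the pair of large proteins that bind the SRP RNA, had log2 fold changes of -0.05 (SE 0.040) and -0.11 (SE 0.045, edgeR adjusted p = 0.061). The groups of both lay apart after scaling, with shRNF26 lower, as did those of 25.9% of all tested genes. SRP72 passed without shcontrol replicate 1 (-0.14). Levels per kb spanned a wide range within this complex. SRP14 stood at 269 ± 2.99 CPM per kb in shRNF26 and 265 ± 7.93 CPM per kb in shcontrol libraries, and SRP19 at 4.25 ± 0.524 CPM per kb in shRNF26 and 5.69 ± 0.466 CPM per kb in shcontrol libraries. The difference between SRP54 and the subunits that did not pass was not itself tested.

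Both subunits of the SRP receptor fell. SRPRA, the GTPase that pairs with SRP54, had 1931, 2067 and 1906 counts in shRNF26 libraries, against 2206, 2212 and 2157 in shcontrol libraries (log2 fold change -0.24, SE 0.045, and -0.15 with total-count scaling). SRPRB, which anchors it in the membrane, had 983, 1056 and 946 counts in shRNF26 libraries, against 1159, 1190 and 1292 in shcontrol libraries (log2 fold change -0.38 with SE 0.061 and edgeR adjusted p = 6.63e-05). No shRNF26 library reached the lowest shcontrol library for either gene.

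**Figure D3:**
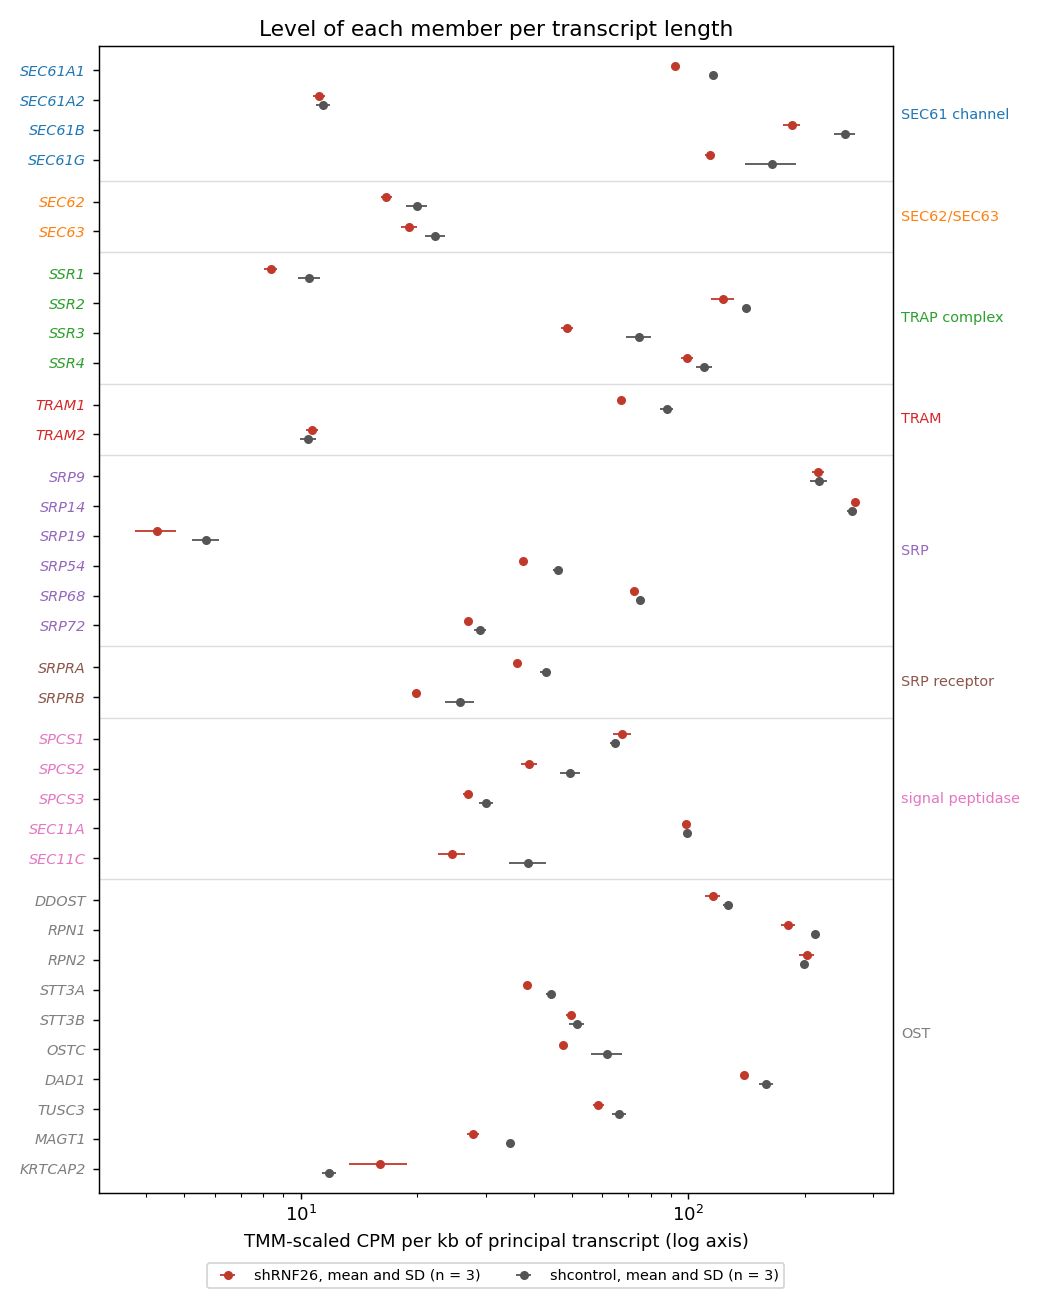
TMM-scaled CPM per kb of principal transcript on a log axis; red points are the mean of the 3 shRNF26 libraries, grey points the mean of the 3 shcontrol libraries, and bars are SD. Within SRP the levels run from 4.25 CPM per kb for SRP19 to 269 for SRP14 in shRNF26 libraries.

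Signal peptidase exists with either of 2 catalytic subunits, SEC11A or SEC11C, beside the accessory subunits SPCS1, SPCS2 and SPCS3. SEC11C fell most of all 35 members, while SEC11A did not pass. SEC11C had 559, 551 and 461 counts in shRNF26 libraries, against 850, 818 and 663 in shcontrol libraries. Its level was 29.5 ± 2.38 CPM in shRNF26 and 46.5 ± 5.20 CPM in shcontrol libraries, or 1.58-fold lower (log2 fold change -0.66 with SE 0.082 and edgeR adjusted p = 3.12e-06). Every shRNF26 library lay below every shcontrol library. SEC11A had 2945, 2947 and 2766 counts in shRNF26 libraries, against 2790, 2731 and 2720 in shcontrol libraries (log2 fold change -0.02 with SE 0.041 and edgeR adjusted p = 0.79).

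SPCS2, an accessory subunit, had 1937, 1825 and 1834 counts in shRNF26 libraries, against 2437, 2243 and 2046 in shcontrol libraries (log2 fold change -0.35, SE 0.052). SPCS3, whose yeast counterpart the enzyme needs for activity, had 2177, 2198 and 2176 counts in shRNF26 libraries, against 2371, 2164 and 2346 in shcontrol libraries (log2 fold change -0.16, SE 0.046). Before scaling its groups overlapped, and the call ended with total-count scaling (-0.07) and with upper-quartile factors (-0.10). SPCS1, which helps to tell signal sequences from membrane segments, had a log2 fold change of 0.06 (SE 0.058) that did not pass.

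OST comes in 2 forms built on different catalytic subunits. STT3A acts with the channel on entering chains and uses OSTC and KRTCAP2 as its specific subunits, while STT3B works with the oxidoreductase subunit MAGT1 or TUSC3. RPN1, RPN2, DDOST and DAD1 belong to both forms. Of these 10 transcripts 7 fell (70%, beside 22.6% of all tested genes). KRTCAP2 rose (10%, beside 18.9%), and RPN2 and STT3B did not pass. Total-count scaling ended the calls of DDOST, DAD1 and TUSC3 and added a rise of RPN2.

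STT3A had 3174, 3153 and 2983 counts in shRNF26 libraries, against 3485, 3384 and 3200 in shcontrol libraries (log2 fold change -0.20 with SE 0.041 and edgeR adjusted p = 0.00073, and -0.11 with total-count scaling). STT3B had 3723, 3782 and 3712 counts in shRNF26 libraries, against 3604, 3638 and 3715 in shcontrol libraries (log2 fold change -0.05 with SE 0.043 and edgeR adjusted p = 0.35). After scaling the STT3A groups lay apart and the STT3B groups overlapped.

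OSTC had 914, 932 and 876 counts in shRNF26 libraries, against 1062, 1069 and 1196 in shcontrol libraries (log2 fold change -0.38, SE 0.063). KRTCAP2 had 127, 186 and 159 counts in shRNF26 libraries, against 112, 112 and 103 in shcontrol libraries, with 8.86 ± 1.53 CPM in shRNF26 and 6.53 ± 0.281 CPM in shcontrol libraries (log2 fold change 0.44 with SE 0.14 and edgeR adjusted p = 0.018). It was the only member called higher and the least abundant of the 35 by count. The call ended without shRNF26 replicate 2 (0.33, adjusted p = 0.11) and without shRNF26 replicate 3 (0.41, adjusted p = 0.054), and its exons overlap AL713999.1 on the same strand in GENCODE 29, so its counts are uncertain, as are those of the 5 members that fell and have such an overlap (SSR1, SRP19, SRPRB, DDOST and STT3A).

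MAGT1 had 2054, 1984 and 1960 counts in shRNF26 libraries, against 2420, 2336 and 2257 in shcontrol libraries (log2 fold change -0.31 with SE 0.045 and edgeR adjusted p = 1.73e-05). TUSC3 had 1586, 1551 and 1529 counts in shRNF26 libraries, against 1668, 1595 and 1702 in shcontrol libraries (log2 fold change -0.18, SE 0.050, and -0.09 with total-count scaling or -0.12 with upper-quartile factors, both of which ended the call). Subunits of both OST forms were thus among those that fell.

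Of the shared subunits, RPN1 had 419 ± 17.3 CPM in shRNF26 and 491 ± 7.50 CPM in shcontrol libraries (log2 fold change -0.23, SE 0.039, and -0.14 with total-count scaling). RPN2, its partner, had 508 ± 22.6 CPM in shRNF26 and 499 ± 3.90 CPM in shcontrol libraries (log2 fold change 0.03 with SE 0.038 and edgeR adjusted p = 0.62). DAD1 had a log2 fold change of -0.19 (SE 0.047), which total-count scaling reduced to -0.10 and ended as a call. DDOST, at -0.13 (SE 0.043), was the smallest fall that passed, and its call was lost with total-count scaling (-0.04), with upper-quartile factors (-0.08) and without any of shRNF26 replicates 1 and 3 or shcontrol replicates 1 and 2 (-0.14 to -0.11). Per kb, RPN2 stood at 202 ± 8.97 CPM in shRNF26 and 198 ± 1.55 CPM in shcontrol libraries, and RPN1 at 181 ± 7.48 CPM in shRNF26 and 212 ± 3.24 CPM in shcontrol libraries. These were the highest levels per kb in OST in both groups, and KRTCAP2 had the lowest.

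Alternative subunits were compared within each library, since such a ratio does not depend on scaling. The SEC11A to SEC11C count ratio had a geometric mean, as used for all pairs, of 5.53 in shRNF26 and 3.55 in shcontrol libraries, a log2 difference of 0.64. In the other 4 pairs the ratio was lower in shRNF26 libraries. SEC61A1 to SEC61A2 averaged 15.9 in shRNF26 and 19.4 in shcontrol libraries (log2 difference -0.29), and TRAM1 to TRAM2 averaged 2.53 in shRNF26 and 3.39 in shcontrol libraries (-0.42). The differences were smaller for STT3A to STT3B, with 0.830 in shRNF26 and 0.918 in shcontrol libraries (-0.15), and for MAGT1 to TUSC3, with 1.29 in shRNF26 and 1.41 in shcontrol libraries (-0.14). In each of the 5 pairs the 3 shRNF26 libraries and the 3 shcontrol libraries did not overlap, which gives a two-sided exact permutation p of 0.1 and an adjusted p of 0.1 over the 5 pairs. That is the smallest p that 3 libraries against 3 allow, so none could pass 0.05. The groups came closest for STT3A to STT3B, with log2 ratios of -0.230 in shRNF26 replicate 1 and -0.215 in shcontrol replicate 3. MAGT1 to TUSC3 followed, at 0.373 and 0.407 in the same libraries. These are count ratios, not corrected for length, and give no relative amount of the 2 transcripts.

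**Figure D4:**
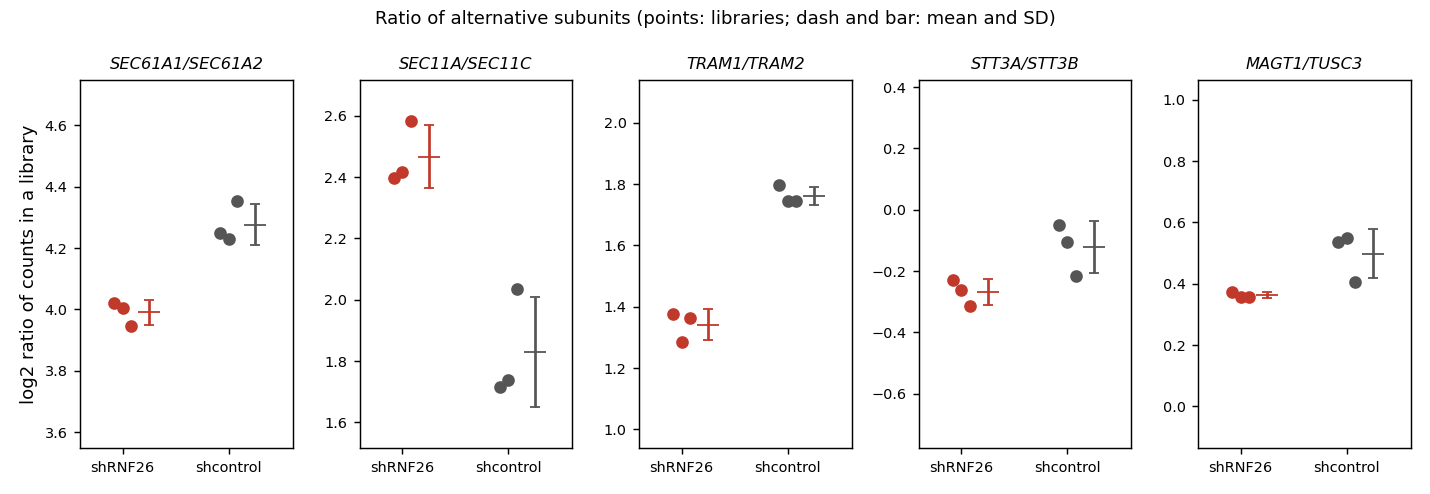
Log2 ratio of the counts of alternative subunits in each library, for 5 pairs; points are libraries, red for shRNF26 and grey for shcontrol, dashes and bars are mean and SD, and every panel spans 1.2 log2 units. The red points lie above the grey ones for SEC11A/SEC11C and below them in the other 4 panels.

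Promoter sequences were searched for elements of the unfolded protein response, because XBP1 and ATF6 are known regulators of this machinery. Windows of 250 bases before to 50 bases after a RefSeq gene start (GRCh38.p14) were on hand for 29 members, in 37 windows. On both strands, the letters CCAAT, then 9 bases of any kind, then CCACG (the ER stress response element, ERSE), and ATTGG, then 1 base of any kind, then CCACG (ERSE-II), were found in none of the 29 members, and in 0.149% (ERSE) and 0.139% (ERSE-II) of 10765 tested genes. The letters TGACGTGG (core of the unfolded protein response element, UPRE) were found in 4 members, SEC62, SSR3, SSR4 and SRP19, or 13.8% of those searched, and in 1.24% of the tested genes. No match overlapped another motif. All 4 are among the 20 searched members that fell, and none is among the 9 searched members that did not fall. The SSR4 call was lost under total-count scaling. Most of the 20 had no match. With 4 matches this split cannot link the element to the falls, and such a link was not tested. The 4 windows follow, in the direction of transcription, with the match in capitals; in each it reads CCACGTCA, the element on the opposite strand. SSR3 has 3 windows and SSR4 has 2, and the 1 with the match is shown. A match is a run of letters in the window, not a bound site.
SEC62, chr3:169966557-169966856, plus strand: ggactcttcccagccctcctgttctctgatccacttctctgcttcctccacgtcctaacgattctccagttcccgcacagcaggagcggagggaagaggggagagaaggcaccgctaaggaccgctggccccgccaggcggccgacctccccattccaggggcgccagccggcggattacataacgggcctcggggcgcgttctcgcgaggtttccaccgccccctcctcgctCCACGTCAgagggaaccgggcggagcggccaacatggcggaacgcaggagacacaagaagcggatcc
SSR3, chr3:156554076-156554375, minus strand: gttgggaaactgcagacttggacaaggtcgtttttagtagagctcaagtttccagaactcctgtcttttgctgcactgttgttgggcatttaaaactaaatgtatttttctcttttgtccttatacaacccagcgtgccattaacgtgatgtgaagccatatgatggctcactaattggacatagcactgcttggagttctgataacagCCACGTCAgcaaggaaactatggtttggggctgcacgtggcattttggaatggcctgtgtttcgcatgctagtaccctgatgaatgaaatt
SSR4, chrX:153794418-153794717, plus strand: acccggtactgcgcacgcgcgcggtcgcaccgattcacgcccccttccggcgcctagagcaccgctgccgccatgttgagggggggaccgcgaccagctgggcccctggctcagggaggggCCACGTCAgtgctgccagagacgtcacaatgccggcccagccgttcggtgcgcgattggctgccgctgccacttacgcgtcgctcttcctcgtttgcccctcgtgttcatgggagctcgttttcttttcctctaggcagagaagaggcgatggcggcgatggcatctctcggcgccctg
SRP19, chr5:112861037-112861336, plus strand: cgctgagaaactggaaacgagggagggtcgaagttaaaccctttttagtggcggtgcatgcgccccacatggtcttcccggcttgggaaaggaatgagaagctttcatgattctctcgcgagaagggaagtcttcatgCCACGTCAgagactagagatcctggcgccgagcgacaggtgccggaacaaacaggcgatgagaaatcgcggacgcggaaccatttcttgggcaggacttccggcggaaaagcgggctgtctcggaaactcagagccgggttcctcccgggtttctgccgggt

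The match ends 10 bases before the start in SEC62, 34 bases before it in SSR3, 105 bases before it in SRP19 and 122 bases before it in SSR4. The log2 fold changes of these genes were -0.26, -0.62, -0.42 and -0.15.

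Genes that work next to the members were counted from lists of the same pathway, also chosen with earlier results of these data known. Of 68 listed genes 67 were tested. Among them 24 fell (35.8%, beside 22.6% of all tested genes) and 9 rose (13.4%, beside 18.9%), with a median log2 fold change of -0.07. With total-count scaling 18 of them fell and 15 rose, beside 2266 and 4451 of the 14766 tested genes. WDR83OS had no count in any library and was not tested. The luminal partners of the channel had the lowest median of these lists, at -0.45. HSPA5, which encodes BiP, had 24678, 25692 and 24004 counts in shRNF26 libraries, against 58212, 55348 and 52591 in shcontrol libraries (log2 fold change -1.25, SE 0.031). HYOU1, a nucleotide exchange factor for BiP, had a log2 fold change of -0.69 (SE 0.043), so both lay beyond the fall of any of the 35 members. HYOU1 was close to the member SEC11C (-0.66, SE 0.082), and the difference between them was not tested. DNAJC1, a co-chaperone of BiP, had -0.21 (SE 0.080, edgeR adjusted p = 0.048), a call that ended in 7 of 10 settings with all libraries, total counts (-0.11) among them, and in 4 of 6 with 1 library left out (-0.19 to -0.17), and SIL1 did not pass.

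The remaining OST subunits OST4 and TMEM258 did not pass, with log2 fold changes of -0.15 (SE 0.062, edgeR adjusted p = 0.059) and -0.07 (SE 0.083). Synthesis of the dolichol-linked oligosaccharide, the donor that OST uses, went both ways, with 4 of 24 genes higher, 4 lower and 16 not passing. Each direction thus held 16.7% of the list, near or below the shares of all tested genes. The mannosyltransferase gene ALG2 fell by 0.45 on the log2 scale (SE 0.063), and NUS1, a subunit of the enzyme that makes the dolichol precursor, fell by 0.44 (SE 0.043). ALG12, another mannosyltransferase gene, rose by 0.35 on that scale (SE 0.12), a call lost without shRNF26 replicate 1 (0.29), shRNF26 replicate 2 (0.33) or shcontrol replicate 3 (0.25). Of 11 N-glycan trimming and lectin chaperone genes, 5 rose (45.5%, beside 18.9% of all tested genes). In the same list 2 fell (18.2%, beside 22.6% of all tested genes) and 4 did not pass. The 2 that fell were the lectin chaperones CANX (-0.23, SE 0.033) and CALR (-0.21, SE 0.035), and the mannosidase gene MAN1B1 had the largest rise (0.21, SE 0.054). The lists of glycan supply and trimming held all 9 rises among these other pathway genes, and without shRNF26 replicate 1 the number of rises was 3.

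Other insertion routes of the ER membrane were mostly lower or did not pass. In the multipass translocon, 6 of 8 tested genes fell (75%, beside 22.6% of all tested genes), NOMO1 and NOMO3 among them. In 4 of the 8 (50%) every shRNF26 library lay below every shcontrol library, beside 25.9% of all tested genes. RAB5IF, a subunit of it, had a log2 fold change of -0.35 (SE 0.065). NOMO1 and NOMO3, near-identical copies whose reads may be split, had -1.10 and -1.85. NOMO1 had 27, 28 and 18 counts in shRNF26 libraries, against 24, 87 and 36 in shcontrol libraries, and without shcontrol replicate 2 its value was -0.38 and not called. The NOMO1 call also ended without shRNF26 replicate 3 (-0.95) and with a robust fit (adjusted p = 0.11). NOMO3 had 11, 10 and 3 counts in shRNF26 libraries, against 8, 6 and 68 in shcontrol libraries. The NOMO3 call also ended with DESeq2 (adjusted p = 0.21), limma-trend (-0.60, adjusted p = 0.17), a robust fit (adjusted p = 0.34) and without any 1 of the 3 shRNF26 libraries (-2.15 to -1.49). In the ER membrane complex, which inserts certain membrane segments, 5 of 10 genes fell (50%, beside 22.6% of all tested genes) and 5 did not pass. EMC7 had -0.31 (SE 0.058), EMC3 -0.20 (SE 0.044) and EMC8 -0.18 (SE 0.061), and the EMC8 call ended with total-count scaling (-0.09), upper-quartile factors (-0.13), DESeq2 (adjusted p = 0.053) and without shRNF26 replicate 1 (-0.18), shRNF26 replicate 2 (-0.16) or shcontrol replicate 1 (-0.15). Of 8 genes for the insertion of tail-anchored proteins, 4 fell (50%, beside 22.6% of all tested genes) and 4 did not pass. GET4, of the cytosolic targeting complex, had -0.60 (SE 0.11), the membrane receptor subunit CAMLG -0.43 (SE 0.065) and the chaperone SGTA -0.23 (SE 0.049).

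Exons of 14 members overlap a gene on the opposite strand and those of 6 a gene on the same strand in GENCODE 29, and 9 members have pseudogenes named after them. Neither the labels nor the processing notes say how reads in such regions were counted. Of the 12 members with none of the 3, 10 fell, beside 68.6% of all members and 22.6% of all tested genes. These 10 were SEC61B, SEC61G, SSR3, TRAM1, SRP54, SEC11C, RPN1, DAD1, TUSC3 and MAGT1, while SEC11A and STT3B did not pass. The DAD1 and TUSC3 calls ended with total-count scaling. The part that such overlaps and pseudogenes play in the falls was not tested.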

How the data were processed

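Each library is one column of a single table of 61541 Ensembl genes deposited by the authors. The table is named for FPKM, but the deposited values are whole-number gene counts whose totals differ between libraries, and they were treated as counts. The submitters' processing notes name hg19 as the genome build. Libraries came from a directional kit, per the labels' protocols. The aligner, counter, annotation and strand setting were not given in the sources used here. The table's 2 blank rows were left out. A gene-name table supplied symbols for 61369 identifiers, and GENCODE 29 for 159 more.

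Differences were tested with edgeR 4.0.16 (quasi-likelihood, R 4.3.3) over the 14766 genes with a mean of at least 1 CPM, which hold 99.7% of the counts, with TMM scaling, a two-sided adjusted p threshold of 0.05 and standard errors from the F statistic. Depth was 16682871 to 18021718 counts per library, so 1 count is worth 0.0555 to 0.0599 CPM, and the biological coefficient of variation was 0.0507. Replicate pairs differed by more than sampling noise (chi-square per gene 2.31 to 4.98). The fit was first checked on simulated counts. Lengths are of APPRIS principal transcripts in GENCODE 29. Ratios of alternative subunits used log2 counts with an offset of 0.5 and an exact permutation test.

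The members and lists were chosen with earlier results of these data known. Counts per library are given for the 3 called members with the largest change in each role group, for members called at an absolute log2 fold change of at least 0.5, for alternative pairs and for members called against the direction of their group. Of each other list up to 3 called genes with the largest change are named, and genes named beyond that were chosen after their values were seen. Alternatives were other scalings, DESeq2 1.42.0, limma 3.58.1 on log2(CPM + 1), a robust fit, 3 other filters, a replicate block and leaving out each library.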

Additional observations from a re-analysis of the deposited data

How the results depend on the processing

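Of the settings tried, total-count scaling changed the member counts most, with 18 lower and 4 higher, and for the other pathway genes 15 higher. Upper-quartile factors gave 20 members lower and 1 higher. DESeq2, limma-trend, the robust fit, relative log expression factors, the 3 other filters and the replicate block each gave 24 lower and 1 higher. Leaving out 1 library gave 22 to 24 members lower and 0 to 1 higher, and 3 to 8 other pathway genes higher. Values that did not pass changed sign in some settings. With total counts SEC61A2 was 0.056, SRP9 0.086, SRP68 0.040, SEC11A 0.075 and STT3B 0.037. With upper-quartile factors SEC61A2 was 0.019, SRP9 0.049, SRP68 0.0022 and SEC11A 0.037. SRP9 was 0.0035 at a minimum mean of 5 CPM and -0.048 to 0.024 on leaving out 1 library, and RPN2 was -0.0094 to 0.048 on doing so. On leaving out 1 library the log2 difference in the ratio of alternative subunits ranged from 0.58 to 0.74 for SEC11A/SEC11C, -0.31 to -0.25 for SEC61A1/SEC61A2, -0.44 to -0.39 for TRAM1/TRAM2, -0.19 to -0.11 for STT3A/STT3B and -0.18 to -0.11 for MAGT1/TUSC3, and its sign is fixed by groups that do not overlap. Replicate numbers gave no clear pairing of the libraries. Deviations of same-numbered libraries correlated at -0.0277 to 0.0547, and 2 of 3 shRNF26 libraries correlated best with their own number. With 3 libraries per group this check cannot exclude pairing. The replicate block left the 24 lower and 1 higher calls of members in number and gave 25 lower and 10 higher other pathway genes. NOMO3 fell below the filter without shcontrol replicate 3. The depth limits SRP19 and KRTCAP2 most, at 103 to 288 counts per library.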
